A study of Mus musculus with 38 samples.

Results

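The genes described here encode the subunits of the mitochondrial respiratory chain and of ATP synthase. They were the genes of the array annotation whose symbols begin with Nduf followed by a, b, c, s or v and a number (complex I), Sdh (complex II), Uqcr (complex III), Cox and a number from 4 to 8 (complex IV) or Atp5 (complex V), leaving out *Cox8b* and the Ndufaf assembly factors. Only probe sets with a single gene symbol were used, and a gene with several was represented by the brightest of them on average. This gave 80 of 19938 genes, with 35 in complex I, 4 in complex II, 8 in complex III, 16 in complex IV and 17 in complex V. For 64 of them there was 1 probe set, and for 16 there were several. *Cox7c* and *Ndufb4* were left out because their probe sets carried several symbols. The subunits encoded by mitochondrial DNA have no symbol in this annotation and were not analysed here.

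The respiratory chain sits in the inner mitochondrial membrane. Complexes I and II pass electrons from NADH and succinate to ubiquinone, complex III passes them on to cytochrome c, complex IV hands them to oxygen, and the proton gradient built on the way drives ATP synthase (complex V). Most subunits are encoded in the nucleus, and brown fat and striated muscle are rich in them, so that their RNA in a piece of neck tissue also depends on how much of such tissue it holds. Thyroid follicular cells use mitochondrial respiration to supply the oxidative steps of hormone synthesis.

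Thyroid RNA of 38 mice had been hybridised, 1 array per mouse, to an Affymetrix whole-transcript array (Mouse Gene 1.0 ST). All mice came from transgenic lines on the FVB/N background in which the human *BRAF*V600E cDNA, an activated kinase, is driven by the bovine thyroglobulin promoter in thyroid follicular cells. A mouse was *BRAF*(+) if it carried *BRAF*V600E RNA. *BRAF*(-) mice were without that RNA and non-transgenic, except 1 BHL mouse that was genotyped as transgenic. The 6 groups were asymptomatic thyroids (AT) of 5 *BRAF*(-) mice aged 4 to 12 months and 5 *BRAF*(+) mice aged 7 to 11 months, benign hyperplastic lesions (BHL) of 4 *BRAF*(-) mice aged 6 to 24 months and 4 *BRAF*(+) mice aged 4 to 11 months, and, all *BRAF*(+), 10 borderline lesions (BL) at 4 to 21 months and 10 papillary thyroid carcinomas (PTC) at 6 to 21 months. Males were 2, 1, 1, 1, 2 and 2 of these groups in that order, and sex was a term in every model. By the study's description most *BRAF*(+) mice came from a single line, tg3, while most *BRAF*(-) mice came from the other lines. Line tg3 held mice of either *BRAF* status. All 4 *BRAF*(+) BHL came from it, against 1 of the 4 *BRAF*(-) BHL. The labels do not give the line of each mouse, so no model holds it, and the effects of line and of *BRAF* status cannot be told apart here. RNA came from a part of the gland and the histology from the remainder, so that the piece on the array may hold tissue that was not seen under the microscope.

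Signals are log2 values after RMA normalization, and a difference of 1 on this scale is a doubling of the signal. A gene was taken as lower or higher where its adjusted p (FDR) was under 0.05 by limma with Benjamini-Hochberg adjustment over all 35556 probe sets. Array medians lay between 6.00 and 6.15. *Tg*, the thyroglobulin gene that defines follicular cells, lay between 13.30 and 13.74 in all 38 thyroids. The highest signal of the series was 14.18, so *Tg* lies near the top of the scale and is no measure of equal follicular content.

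To show the control regions of genes that moved together, the 250 bases before the start are printed for 5 of them (RefSeq, GRCm38.p6, 5′ to 3′ on the strand of the gene). The 4 motifs bound by known regulators of respiratory genes were searched on both strands. Capitals mark them: CCGGAAGT for ETS factors such as GABP, TGCGCA as the core of the NRF1 site, TCAAGGTCA for the oestrogen-related receptors (ERR) and AAGATGGCG for YY1. *Cox6a1* and *Sdhd*, both lower with *BRAF*V600E, hold the NRF1 letters, *Atp5h* holds the ETS letters, *Atp5g3* the ERR letters, and *Cox7a1*, the gene with the largest differences, none of the 4 in this stretch.
Cox6a1, chr5:115348959-115349208, minus strand: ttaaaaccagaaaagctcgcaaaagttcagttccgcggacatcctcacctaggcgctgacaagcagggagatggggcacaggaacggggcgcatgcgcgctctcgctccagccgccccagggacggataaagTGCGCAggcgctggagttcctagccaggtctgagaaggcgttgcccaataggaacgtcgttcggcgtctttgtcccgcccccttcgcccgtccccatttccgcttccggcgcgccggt
Sdhd, chr9:50603850-50604099, minus strand: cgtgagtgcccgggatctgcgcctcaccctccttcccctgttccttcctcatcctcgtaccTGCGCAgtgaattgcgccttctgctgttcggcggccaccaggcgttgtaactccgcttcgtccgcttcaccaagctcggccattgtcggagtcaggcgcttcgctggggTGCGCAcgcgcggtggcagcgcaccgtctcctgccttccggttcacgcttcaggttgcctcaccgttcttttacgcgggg
Atp5h, chr11:115419920-115420169, minus strand: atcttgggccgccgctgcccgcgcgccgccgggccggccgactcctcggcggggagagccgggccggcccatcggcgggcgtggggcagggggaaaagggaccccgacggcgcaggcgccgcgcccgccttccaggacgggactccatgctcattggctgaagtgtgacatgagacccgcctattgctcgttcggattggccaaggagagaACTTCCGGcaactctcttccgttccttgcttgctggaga
Atp5g3, chr2:73911327-73911576, minus strand: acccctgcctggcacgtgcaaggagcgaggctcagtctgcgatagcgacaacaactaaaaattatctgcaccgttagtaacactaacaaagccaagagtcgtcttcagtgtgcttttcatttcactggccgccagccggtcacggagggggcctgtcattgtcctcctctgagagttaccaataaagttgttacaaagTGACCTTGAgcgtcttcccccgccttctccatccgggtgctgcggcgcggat
Cox7a1, chr7:30183921-30184170, plus strand: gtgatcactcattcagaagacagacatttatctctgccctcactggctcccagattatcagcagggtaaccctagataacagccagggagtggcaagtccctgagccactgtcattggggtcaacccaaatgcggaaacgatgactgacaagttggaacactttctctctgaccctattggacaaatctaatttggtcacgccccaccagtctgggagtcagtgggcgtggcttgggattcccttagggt

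The RefSeq table held a window from 250 bases before to 50 bases after the start for 65 of the 80 genes, 70 windows in all because some genes have several starts. The NRF1 letters were in 18 of these 70 windows (25.7%), against 7.76% of all 32851 windows in the table. The YY1 letters were in 10.0% of the members' windows against 1.40% of all, the ETS letters in 7.14% against 3.89%, and the ERR letters in 2.86% against 0.423%. Among the 19115 windows of genes measured on the array, which are the nearer comparison, the shares were 10.3% for NRF1, 1.94% for YY1, 5.42% for ETS and 0.298% for ERR. The ETS and ERR letters were found in 5 and 2 members' windows. At least 1 of the 4 motifs was found for 28 of the 65 genes, and for 14.1% of all genes of the table. The 5 printed stretches are examples only. Of the genes lower in all 5 comparisons with any call below, *Cox6a1* holds a motif, and *Ndufa10*, *Ndufa11*, *Ndufb7*, *Sdhb*, *Uqcr10* and *Cox5a* hold none. Among those lower in 4 of them, *Ndufb8*, *Ndufc1*, *Ndufs3*, *Sdhd*, *Uqcr11*, *Uqcrc1*, *Cox8a*, *Atp5h* and *Atp5j2* hold one. The remaining genes lower in 4 that have a window hold none. Of the genes lower in none that have a window, *Ndufs5*, *Atp5g2* and *Atp5j* hold a motif, and *Ndufa4*, *Ndufb11* and *Cox7b2* do not. Whether motifs go with lower RNA was not tested. These are letter matches only, with no measure of binding.

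Subunit RNA was lower in *BRAF*(+) BHL, BL and PTC than in the *BRAF*(-) groups, in all 5 complexes alike, and *BRAF*(+) AT lay between them. The mean centred signal, which is the log2 signal minus the gene's mean over the 38 arrays, was averaged over the 80 genes in each mouse. It was 0.31 ± 0.23 in *BRAF*(-) AT (SD, n = 5), 0.12 ± 0.08 in *BRAF*(+) AT (n = 5), 0.43 ± 0.18 in *BRAF*(-) BHL (n = 4), -0.24 ± 0.21 in *BRAF*(+) BHL (n = 4), -0.11 ± 0.16 in BL (n = 10) and -0.19 ± 0.11 in PTC (n = 10). Every PTC lay below every *BRAF*(-) thyroid, though barely, with the highest PTC at 0.0015 and the lowest *BRAF*(-) thyroid, an AT, at 0.0044. All *BRAF*(-) BHL, from 0.22 upward, were above all *BRAF*(+) BHL, of which the highest was at 0.07. BL and PTC overlapped, and so did both *BRAF*(-) groups and both AT groups.

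The group means stood in the same order in all 5 complexes. Single mice could depart from this, as did *BRAF*(-) AT mouse M_956, at 0.37 in complex II against -0.10 to 0.04 in the others. In complexes III and V the highest PTC (0.07 and 0.02) lay above the lowest *BRAF*(-) thyroid (-0.07 and -0.10). In complex I the group means ran from 0.42 in *BRAF*(-) BHL to -0.24 in *BRAF*(+) BHL, in complex II from 0.48 to -0.29, in complex III from 0.55 to -0.26, in complex IV from 0.40 to -0.21 and in complex V from 0.41 to -0.24. *BRAF*(-) BHL was the highest group and *BRAF*(+) BHL the lowest in each of the 5 complexes.

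**Figure D1:**
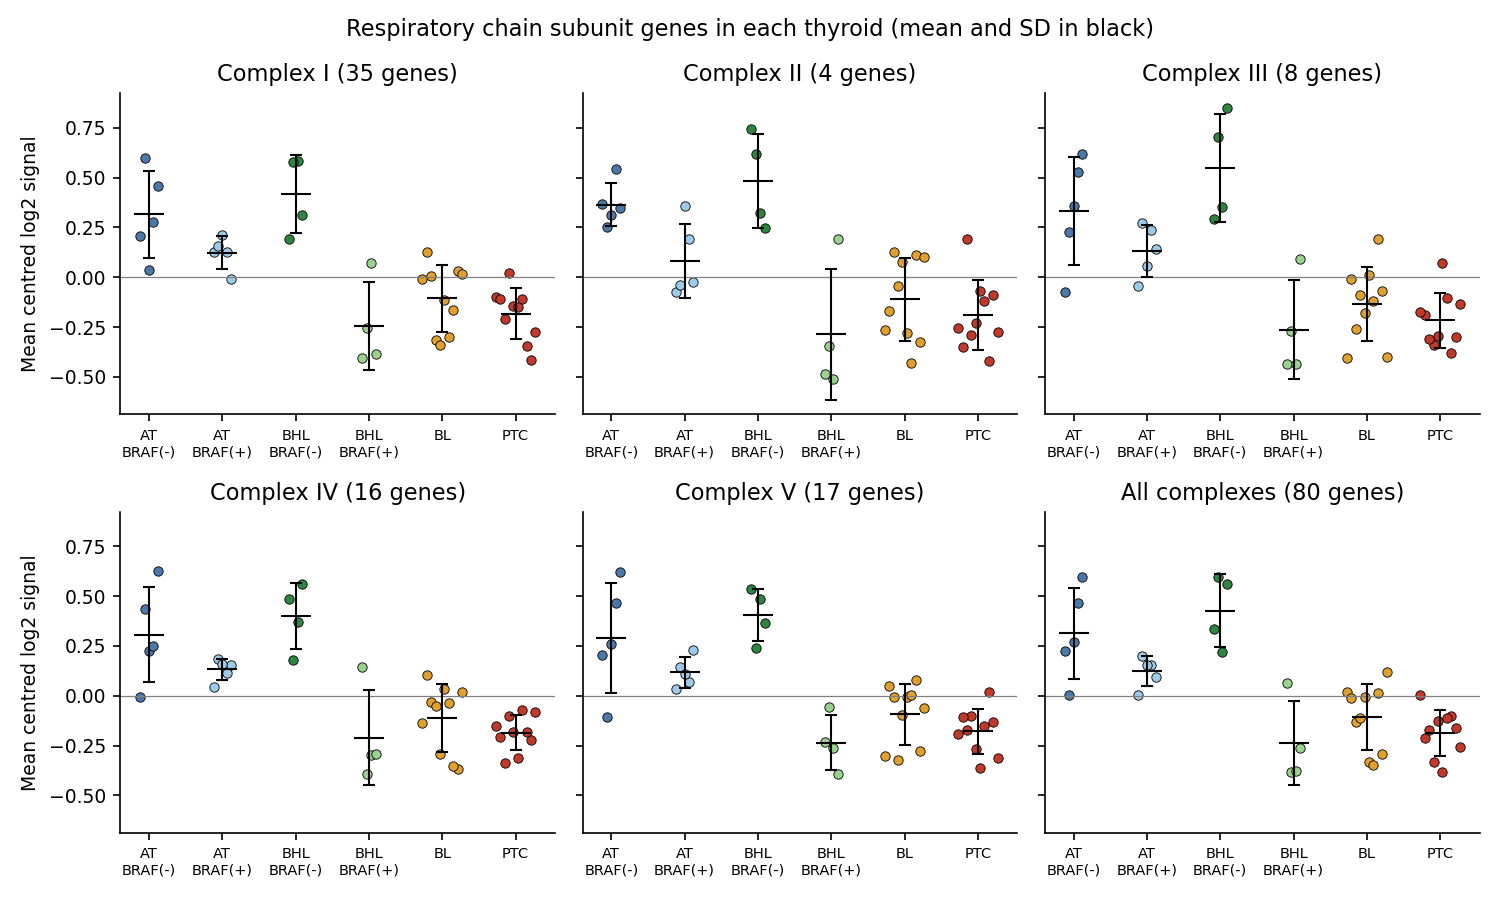
Mean centred log2 signal of the subunit genes of each complex and of all 80 genes (y axis) in each of the 38 thyroids, by group (x axis). Points are mice, black bars the mean and SD. In every panel *BRAF*(-) BHL is highest and *BRAF*(+) BHL lowest, and 1 *BRAF*(+) BHL mouse lies above the other 3 of its group.

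The effect of *BRAF*V600E before carcinoma was examined in the 18 non-malignant thyroids (9 *BRAF*(+) and 9 *BRAF*(-)) with lesion type and sex in the model. Of the 80 genes 18 were lower and 0 higher in *BRAF*(+) thyroids, where 2.58% of all genes were lower and 3.16% higher, and 60 were lower at an unadjusted p under 0.05 against 0 higher, where 10.2% of all genes were lower and 10.2% higher at that p. The median log2 difference was -0.37 (a fall of 1.29-fold), against 0.02 over all genes, and 79 of the 80 differences were below 0. By complex, 10 of 35, 2 of 4, 1 of 8, 2 of 16 and 3 of 17 genes were lower, in the order I to V. No gene had all 9 *BRAF*(+) thyroids below all 9 *BRAF*(-) ones.

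In complex I the lower genes were *Ndufa1*, *Ndufa9*, *Ndufa10*, *Ndufa11*, *Ndufb5* and *Ndufb7*, which encode accessory subunits, and *Ndufs1*, *Ndufs3*, *Ndufv1* and *Ndufv2*, which encode core subunits of the electron path. *Ndufs1* lay at 8.63, 9.07, 9.07, 9.31 and 9.32 in *BRAF*(-) AT. Its *BRAF*(-) BHL values were 8.998, 9.10, 9.28 and 9.55. The *BRAF*(+) values were 8.31, 8.50, 8.75, 8.88 and 8.98 for AT and 8.05, 8.27, 8.57 and 9.08 in BHL. The groups overlapped through the lowest *BRAF*(-) AT mouse and the highest *BRAF*(+) BHL mouse, and the log2 difference was -0.50 (SE 0.12, adjusted p 0.0202 by limma). *Ndufa1* had the largest called difference of the complex, -0.85 (SE 0.23, adjusted p 0.0491). *Ndufb8* and *Ndufb6*, also accessory subunits, stood at -0.77 (SE 0.25) and -0.63 (SE 0.18) with adjusted p values of 0.0999 and 0.0608. *Ndufs5* stood at -0.00 (SE 0.13).

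In complex II, which is also the succinate dehydrogenase of the tricarboxylic acid cycle, *Sdhb* (iron-sulphur subunit) was lower by -0.69 (SE 0.19, adjusted p 0.0489) and *Sdhd* (membrane anchor) by -0.57 (SE 0.13, adjusted p 0.0154). *Sdha*, the flavoprotein, stood at -0.35 (SE 0.11) and *Sdhc*, the other anchor, at -0.27 (SE 0.10), neither past the threshold. In complex III *Uqcr10*, a small subunit, was the gene past the threshold, at -0.71 (SE 0.18, adjusted p 0.0335). *Uqcrq* stood at -0.68 (SE 0.19, adjusted p 0.0561), and *Uqcrb* had the smallest difference of the complex, -0.21 (SE 0.12).

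In complex IV *Cox6a1* was lower by -0.66 (SE 0.16, adjusted p 0.0272) and *Cox5a* by -0.59 (SE 0.16, adjusted p 0.0489). *Cox7a1* stood at -1.28 with an SE of 0.47 (adjusted p 0.157), the lowest difference of the 80 genes and also the least precise among those named. In complex V *Atp5h*, subunit d of the stalk that holds the catalytic head in place, was lower by -0.50 (SE 0.09) with the smallest adjusted p of the 80 genes, 0.00451. *Atp5c1* (the gamma subunit of the rotor, -0.41, SE 0.09) and *Atp5pb* (subunit b, -0.43, SE 0.12) were lower too. *Atp5l* (subunit g) stood at -0.70 (SE 0.23, adjusted p 0.11) and *Atp5j* at -0.09 (SE 0.08).

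Many of these adjusted p values lay close to the threshold, and the count of 18 moved with single mice. It was 35 without *BRAF*(-) AT mouse M_956, the *BRAF*(-) thyroid with the lowest subunit signal. It was 6 without *BRAF*(+) BHL mouse M_943 or *BRAF*(-) BHL mouse M_930, and 7 without *BRAF*(+) BHL mouse M_997 or *BRAF*(-) BHL mouse M_701 or M_764. It was 8 without *BRAF*(+) BHL mouse M_942, 10 without *BRAF*(+) AT mouse M_948 and 11 without *BRAF*(-) AT mouse M_940. The median difference stayed between -0.41 and -0.32 over the 18 fits that left out 1 mouse.

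Split by lesion type, the difference was small in asymptomatic glands. Between *BRAF*(+) and *BRAF*(-) AT 0 of the 80 genes were lower and 0 higher by limma, where 0.015% of all genes were lower, and 11 were lower and 0 higher at an unadjusted p under 0.05, against 4.21% and 6.61% of all genes. The median log2 difference was -0.16, and 76 of 80 differences were below 0. The median was -0.07 (-0.066) without *BRAF*(-) AT mouse M_940 and -0.22 without *BRAF*(-) AT mouse M_956, the range over the 10 fits that left out 1 mouse. The smallest adjusted p was that of *Atp5h*. Its 5 *BRAF*(-) AT values were 10.48, 10.68, 10.69, 10.74 and 11.04, against 9.92, 10.10, 10.23, 10.36 and 10.51 for *BRAF*(+) AT. Only the highest *BRAF*(+) mouse reached the range of the *BRAF*(-) mice, and the difference was -0.46 (SE 0.12, adjusted p 0.112 by limma).

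In benign hyperplastic lesions the subunit genes were lower in *BRAF*(+) mice across every complex. Of the 80 genes 58 were lower and 0 higher, where 5.11% of all genes were lower and 3.92% higher, and the median log2 difference was -0.62 (a fall of 1.54-fold) against 0.03 over all genes. By complex, 24 of 35, 4 of 4, 7 of 8, 9 of 16 and 14 of 17 genes fell. In 42 of the 80 genes every *BRAF*(+) BHL lay below every *BRAF*(-) BHL, which was so for 6.2% of all genes. Leaving out 1 mouse at a time gave 44 to 60 lower genes. The count was 30 with both BHL groups fitted alone, 11 with white and brown adipocyte marker means as covariates and 0 with the muscle mean added to these, in fits described further on.

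*Ndufb8* fell most in complex I. It lay at 9.58, 9.64, 10.12 and 10.17 in *BRAF*(-) BHL and at 7.81, 8.05, 8.13 and 9.17 in *BRAF*(+) BHL, with no overlap. The difference was -1.59 (SE 0.27, 3.01-fold, adjusted p 0.000319 by limma). *Sdhb* lay at 9.76, 9.76, 10.30 and 10.41 against 8.46, 8.51, 8.69 and 9.62, again without overlap, and fell by 1.24 (SE 0.19, adjusted p 0.000144). The highest *BRAF*(+) value of both genes came from mouse M_958, a male of 4 months, which stood apart from the other 3 of its group.

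In complex III *Uqcrq*, the small subunit that lies near the ubiquinone site, lay at 9.43, 9.61, 10.01 and 10.40 in *BRAF*(-) BHL and at 8.23, 8.40, 8.51 and 9.18 in *BRAF*(+) BHL. The groups did not overlap, and the difference was -1.28 (SE 0.21, adjusted p 0.000277). *Uqcr10* (-1.16, SE 0.20) and *Uqcr11* (-1.08, SE 0.22), both small accessory subunits, fell as well. *Uqcrb*, at -0.35 (SE 0.16), was the one gene of complex III that did not pass the threshold.

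Cytochrome c oxidase (complex IV) has several subunits with isoforms of different tissues, whose values are given side by side, since no test between isoforms was made. *Cox7a1*, the isoform of heart, skeletal muscle and brown fat, lay at 9.36, 9.68, 10.51 and 10.87 in *BRAF*(-) BHL and at 6.52, 6.94, 6.97 and 9.84 in *BRAF*(+) BHL. Mouse M_958 overlapped the *BRAF*(-) range and the other 3 lay far below it. The difference was -2.54 (SE 0.54, 5.81-fold, adjusted p 0.00286), the largest of the 80 genes. Its widely expressed partner *Cox7a2* lay at 10.04, 10.11, 10.18 and 10.32 against 9.23, 9.62, 9.66 and 9.69. These ranges did not overlap, and *Cox7a2* fell by 0.61 (SE 0.14, adjusted p 0.00501). *Cox6a1*, the widely expressed isoform of its pair, fell by 1.15 (SE 0.21), and *Cox6a2*, the isoform of heart and skeletal muscle, stood at -0.25 (SE 0.38). *Cox4i1* (-0.83, SE 0.18) and *Cox6b1* (-0.70, SE 0.12) fell, and their partners *Cox4i2* (-0.05, SE 0.11) and *Cox6b2*, the testis isoform (-0.26, SE 0.17), did not pass the threshold. *Cox6a2*, *Cox4i2* and *Cox6b2* had mean signals of 6.53, 6.69 and 6.40 over the 38 arrays, close to the median gene at 6.63, and the part of low signal in their small differences was not tested. *Cox5a* fell by 1.13 (SE 0.18).

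In complex V the largest fall was that of *Atp5l*, from 9.26, 9.80, 9.84 and 10.42 in *BRAF*(-) BHL to 8.00, 8.50, 8.55 and 9.03 in *BRAF*(+) BHL. The groups did not overlap, and the difference was -1.30 (SE 0.25, adjusted p 0.00105). *Atp5l* has 6 probe sets, and these values are those of the brightest. *Atp5mpl*, a small proteolipid, *Atp5e*, the epsilon subunit, and *Atp5o*, which joins the stalk to the head, fell by 0.93 (SE 0.18), 0.85 (SE 0.19) and 0.83 (SE 0.17). *Atp5a1* and *Atp5b*, the alpha and beta subunits that hold the catalytic sites, fell less, by 0.46 (SE 0.10) and 0.32 (SE 0.09).

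**Figure D2:**
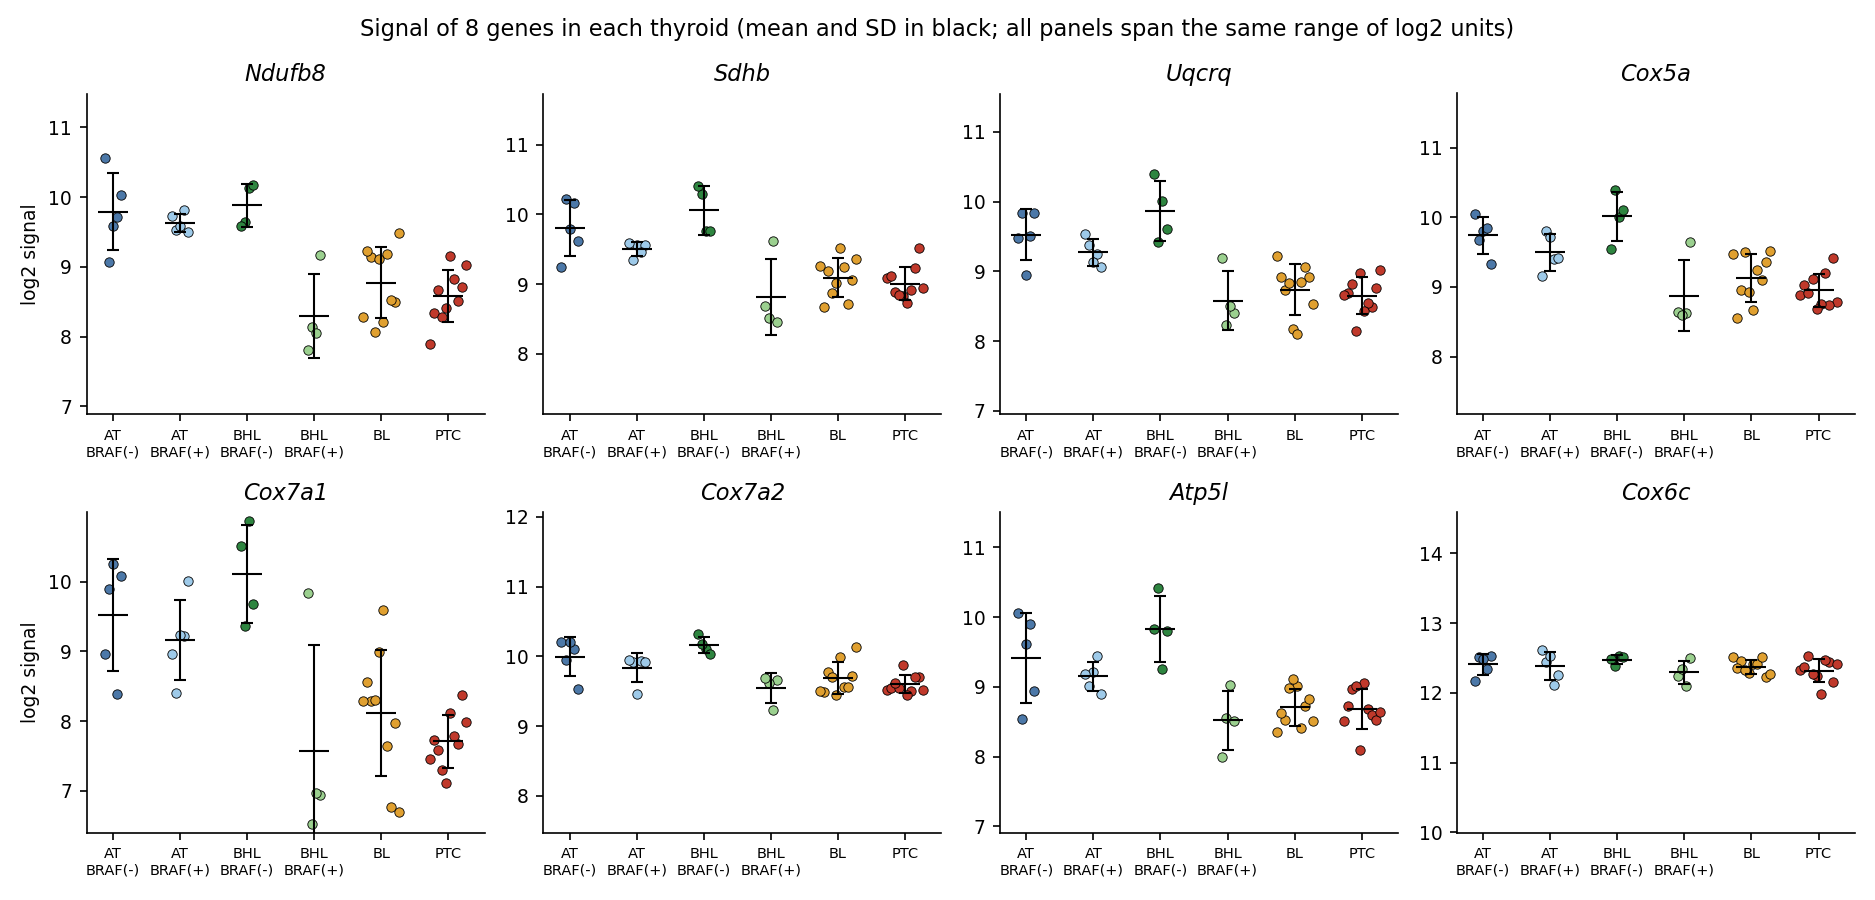
Log2 signal (y axis) of 8 subunit genes in each of the 38 thyroids by group (x axis), with the mean and SD in black. *Ndufb8*, *Sdhb*, *Uqcrq*, *Cox5a* and *Atp5l* are low in 3 of 4 *BRAF*(+) BHL and in most BL and PTC, *Cox7a1* has the widest range, *Cox7a2* a narrow one, and *Cox6c* lies within 11.98 to 12.61 in all mice.

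Whether *BRAF*V600E went with a larger difference in BHL than in AT was tested as an interaction. By limma 0 of the 80 genes passed the threshold in either direction, where 0.0% of all genes were lower, and 40 had an unadjusted p under 0.05, all of them toward a larger fall in BHL, where 5.42% of all genes passed that p in this direction and 4.33% in the other. The median interaction was -0.49. The smallest adjusted p was that of *Cox5a*, at -0.997 (SE 0.23, adjusted p 0.183). Without mouse M_958, 2 of the 80 genes passed. A larger fall in BHL than in AT is therefore not shown by this test. Between *BRAF*(-) BHL and *BRAF*(-) AT 0 genes were lower and 0 higher by limma, where 0.0% of all genes were lower, and 3 were higher at an unadjusted p under 0.05, against 1.53% of all genes. The median difference was 0.14. Leaving out 1 mouse moved it from 0.061 (without *BRAF*(-) BHL mouse M_930) to 0.22 (without *BRAF*(-) AT mouse M_940), and it was 0.07 without *BRAF*(-) AT mouse M_956.

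Borderline lesions and carcinomas were each compared with *BRAF*(-) AT, so that both comparisons rest on the same 5 controls. In BL 41 of the 80 genes were lower and 0 higher, where 6.79% of all genes were lower and 7.24% higher. The median log2 difference was -0.40 against -0.03 over all genes, and 19 of 35, 2 of 4, 5 of 8, 8 of 16 and 7 of 17 genes fell in complexes I to V. In 10 genes every BL lay below every *BRAF*(-) AT, which held for 1.03% of all genes. The count fell from 41 to 14 without *BRAF*(-) AT mouse M_940, which had the highest subunit signal of its group and also high skeletal muscle markers, and to 23 without *BRAF*(-) AT mouse M_524.

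In PTC 59 of the 80 genes were lower and 0 higher than in *BRAF*(-) AT, where 11.5% of all genes were lower and 11.3% higher. The median log2 difference was -0.43 (a fall of 1.35-fold) against -0.04 over all genes, and 25 of 35, 3 of 4, 6 of 8, 10 of 16 and 15 of 17 genes fell. In 16 genes, 11 of them of complex I, every PTC lay below every *BRAF*(-) AT, which was so for 3.33% of all genes. The count was 39 without mouse M_940. Against *BRAF*(+) AT, 30 genes were lower and 0 higher in PTC, where 8.03% of all genes were lower and 8.65% higher, with a median of -0.28. Between PTC and BL 0 genes were lower and 0 higher by limma, where 0.0% of all genes were lower, 1 was lower at an unadjusted p under 0.05 (1.08% of all genes), and the median was -0.08.

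*Ndufb8* lay at 9.07, 9.59, 9.71, 10.03 and 10.56 in *BRAF*(-) AT, from 8.07 to 9.49 in BL with a median of 8.82, and from 7.89 to 9.15 in PTC with a median of 8.59. The upper ends of both lesions overlapped the lowest control mouse. The difference was -0.93 (SE 0.21, adjusted p 0.00415) in BL and -1.12 (SE 0.21, adjusted p 0.000332) in PTC. Against *BRAF*(+) AT, where all 5 mice lay between 9.50 and 9.81 and so above every PTC, it was -1.05 (SE 0.21, adjusted p 0.00244).

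*Ndufv3*, a small subunit of the NADH-binding module of complex I, had the smallest adjusted p of the 80 genes in PTC against *BRAF*(-) AT. It lay at 7.93, 8.06, 8.12, 8.55 and 8.67 in the controls and from 7.40 to 7.85 in PTC, with a median of 7.64. All PTCs were below all controls, and the difference was -0.60 (SE 0.10, adjusted p 6.92e-05). *Ndufa11*, an accessory subunit, was separated in the same way, at 9.38 to 10.02 in the controls and 8.39 to 9.22 in PTC, with a difference of -0.75 (SE 0.14, adjusted p 0.000461). *Ndufc1*, another accessory subunit, fell by 0.64 (SE 0.15) in PTC and by 0.43 (SE 0.15) in BL. *Ndufa7* fell in BL (-0.47, SE 0.16, adjusted p 0.0443) and stood at -0.42 (SE 0.16, adjusted p 0.0533) in PTC.

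In complex II *Sdhb* lay at 9.24, 9.62, 9.79, 10.16 and 10.22 in *BRAF*(-) AT and from 8.73 to 9.52 in PTC with a median of 8.93. The highest PTC (M_700) alone lay above the lowest control, and the difference was -0.73 (SE 0.15, adjusted p 0.000883). *Sdhc* and *Sdhd* fell by 0.41 (SE 0.10) and 0.59 (SE 0.14). *Sdha* did not pass the threshold (-0.30, SE 0.11, adjusted p 0.0584). In complex III *Uqcr10* and *Uqcrq* both fell by 0.81 (SE 0.15 and 0.16), and in BL they fell by 0.79 (SE 0.15) and 0.73 (SE 0.16).

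*Cox7a1* was again the gene with the largest difference. It lay at 8.39, 8.95, 9.90, 10.08 and 10.25 in *BRAF*(-) AT, at 8.40, 8.96, 9.22, 9.23 and 10.01 in *BRAF*(+) AT, from 6.70 to 9.60 in BL with a median of 8.29 and from 7.11 to 8.38 in PTC with a median of 7.70. Every PTC lay below every AT mouse of either *BRAF* status. Against *BRAF*(-) AT the difference was -1.71 (SE 0.42, 3.27-fold, adjusted p 0.00433) in PTC and -1.31 (SE 0.42, adjusted p 0.0379) in BL, and against *BRAF*(+) AT it was -1.45 (SE 0.41, adjusted p 0.0188) in PTC. *Cox7a2* fell by 0.37 (SE 0.11) in PTC. *Cox7a2l*, which helps join complexes III and IV into supercomplexes, fell in BL (-0.56, SE 0.18, adjusted p 0.0328) and stood at -0.39 (SE 0.18, adjusted p 0.116) in PTC.

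In complex V *Atp5g1*, one of the genes for the ring subunit c, fell by 0.63 (SE 0.15, adjusted p 0.00275) in PTC against *BRAF*(-) AT and by 0.56 (SE 0.15, adjusted p 0.0112) against *BRAF*(+) AT. *Atp5o* fell by 0.71 (SE 0.13) and by 0.50 (SE 0.13). *Atp5md*, a small membrane subunit, had the largest difference of the complex in PTC against *BRAF*(-) AT, -0.78 (SE 0.27, adjusted p 0.0419). *Atp5h*, which had the smallest adjusted p of the 80 genes for *BRAF* status, fell by 0.46 (SE 0.11) against *BRAF*(-) AT and stood at 0.01 (SE 0.11) against *BRAF*(+) AT. *Ndufs1* likewise stood at -0.03 (SE 0.13) in PTC against *BRAF*(+) AT.

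**Figure D3:**
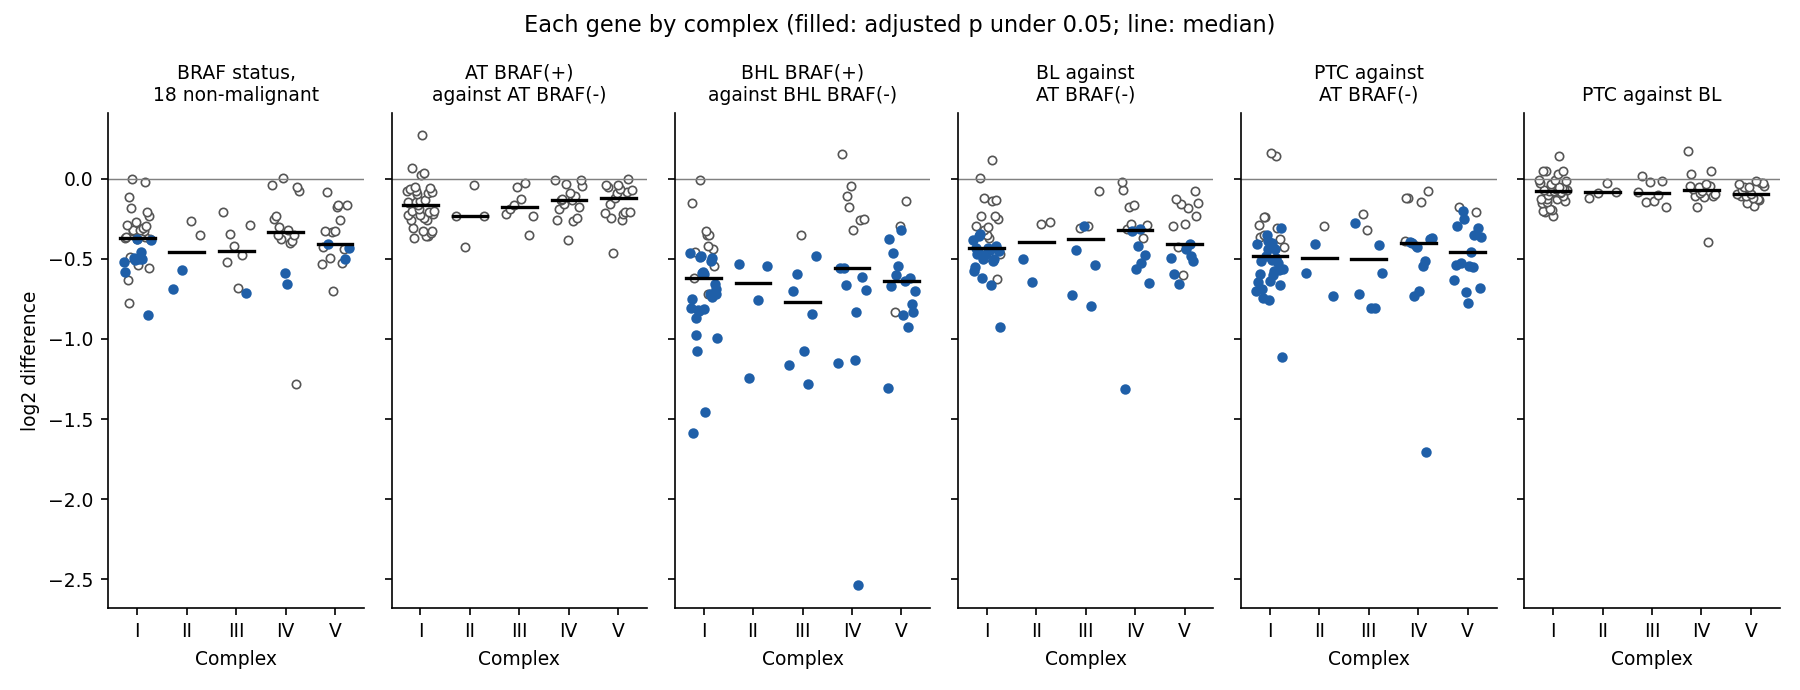
Log2 difference (y axis) of each of the 80 genes by complex (x axis) in 6 comparisons. Filled points passed an adjusted p under 0.05, and lines are medians. All filled points are below 0, there are 18, 0, 58, 41, 59 and 0 of them from left to right, and the lowest point of complex IV is *Cox7a1* in every panel but that of AT.

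Counting over the 5 comparisons with any call (*BRAF* status, BHL, BL, and PTC against each AT group), 7 genes were lower in all 5, namely *Ndufa10*, *Ndufa11*, *Ndufb7*, *Sdhb*, *Uqcr10*, *Cox5a* and *Cox6a1*. A further 23 genes were lower in 4 of them, 14 in 3, 14 in 2 and 9 in 1. These comparisons share mice, and the count is a description. How many of all genes were lower in as many comparisons was not counted, so these numbers have no background share. *Cox5a*, *Cox6a1*, *Ndufa1*, *Ndufb6*, *Ndufb8*, *Sdhb*, *Uqcr11* and *Uqcrq* had also been listed by the study from these same mice, so that their direction is not independent evidence.

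The 13 genes that were lower in none were *Ndufa2*, *Ndufa4*, *Ndufa4l2*, *Ndufb11*, *Ndufs5*, *Uqcrb*, *Cox4i2*, *Cox6a2*, *Cox6c*, *Cox7b2*, *Cox8c*, *Atp5g2* and *Atp5j*. *Cox4i2*, *Cox6a2*, *Cox7b2* and *Cox8c* are isoforms of particular tissues, and none of these 4 had a mean signal above 6.69 over the 38 arrays. *Ndufs5* (5.89) and *Ndufa4l2* (6.10) also had mean signals below the median gene at 6.63, and the part of low signal was not tested. A further probe set of *Ndufs5* carried several symbols and was not used. *Ndufa4*, now known as a subunit of complex IV despite its symbol, lay at 9.22 to 10.04 in *BRAF*(-) AT and 9.62 to 10.10 in PTC, and its difference was 0.16 (SE 0.11, adjusted p 0.337), the highest of the 80 genes there. *Cox6c*, a small subunit found in all tissues, stood at -0.08 (SE 0.09) in PTC, -0.02 (SE 0.09) in BL and -0.18 (SE 0.11) in *BRAF*(+) BHL.

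Genes that work with the chain, taken from lists of mitochondrial pathways, were also examined. Of all genes 2.58%, 5.11%, 6.79% and 11.5% were lower for *BRAF* status, in BHL, in BL and in PTC. In the same order 3.16%, 3.92%, 7.24% and 11.3% were higher, and the counts of each list stand against these shares. Of 16 measured genes of the tricarboxylic acid cycle, which feeds the chain with NADH and succinate, 2 were lower for *BRAF* status, 13 in BHL, 4 in BL and 11 in PTC against *BRAF*(-) AT, and 0 were higher in any of these 4. *Cs* (citrate synthase, the entry enzyme) fell by 0.76 (SE 0.17) in *BRAF*(+) BHL and by 0.48 (SE 0.13) in PTC, and *Suclg1*, a subunit of succinyl-CoA ligase, by 0.99 (SE 0.18) and 0.64 (SE 0.14). Of 16 other carriers and partners of the chain, 3, 9, 1 and 9 were lower and 0 higher. The 1 gene in BL (6.25%) is no more than the share of all genes there. Among these, *Cyc1* (cytochrome c1 of complex III, outside the symbol rule) fell by 1.07 (SE 0.20) in BHL and 0.68 (SE 0.15) in PTC, and *Cycs* (cytochrome c) by 0.83 (SE 0.17) and 0.51 (SE 0.13).

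Among genes that build the chain, 4, 9, 4 and 12 of 41 assembly factors were lower in the same 4 comparisons, with medians of -0.19, -0.27, -0.12 and -0.13. *Sco1*, a copper chaperone of complex IV, fell by 1.01 (SE 0.21) in BHL and 0.52 (SE 0.16) in PTC. Of 77 mitochondrial ribosomal proteins 6, 21, 16 and 27 were lower and 0, 0, 0 and 1 higher, and of 19 genes of import and mitochondrial shape 3, 5, 3 and 4. Of 68 cytosolic ribosomal proteins, by contrast, 0, 0, 1 and 1 were lower and 0, 0, 4 and 13 higher. The 4 higher in BL are below the share of all genes there (7.24%), and the 13 in PTC are above it (11.3%). Of 12 glycolytic genes 0, 1, 0 and 1 were lower and 1, 0, 0 and 1 higher. *Slc2a1*, the glucose transporter GLUT1, was the higher one in both, at 0.30 (SE 0.08) for *BRAF* status and 0.46 (SE 0.15) in PTC. The glycolytic counts in PTC, lower and higher, were below the shares of all genes there.

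Of 14 regulators of mitochondrial biogenesis 1, 3, 2 and 3 were lower and 0, 1, 1 and 1 higher. *Esrrb*, an ERR family receptor, averaged 7.30 ± 0.43 in *BRAF*(-) BHL (SD, n = 4) and 5.34 ± 0.36 in *BRAF*(+) BHL (n = 4), with differences of -1.96 (SE 0.32) in BHL, -1.20 (SE 0.25) in BL and -1.48 (SE 0.25) in PTC. *Ppargc1b*, a coactivator of these receptors, fell by 0.97 (SE 0.22), 0.57 (SE 0.17) and 0.90 (SE 0.17), and *Esrra* by 0.48 (SE 0.13) in BHL and 0.39 (SE 0.10) in PTC. *Nrf1*, whose motif was searched above, stood at 0.17 (SE 0.11) in BHL and 0.06 (SE 0.08) in PTC. *Gabpb1*, a subunit of the ETS factor GABP, was higher in PTC, by 0.59 (SE 0.12).

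Several markers of brown and white fat were also lower in *BRAF*(+) thyroids, though none of the white ones passed the threshold in BHL. *Ucp1*, the uncoupling protein that defines brown adipocytes, lay at 8.64, 10.38, 11.08 and 11.62 in *BRAF*(-) BHL and at 4.46, 4.86, 4.99 and 11.56 in *BRAF*(+) BHL. The high value was that of mouse M_958. Its group means were 10.16 in *BRAF*(-) AT, 9.76 in *BRAF*(+) AT, 6.94 in BL and 6.74 in PTC, and it was lower in BHL (-3.96, SE 1.23), BL (-2.90, SE 0.96) and PTC (-3.09, SE 0.96). Of 7 brown adipocyte genes 2, 4, 1 and 5 were lower for *BRAF* status, BHL, BL and PTC, and of 9 white adipocyte genes 5, 0, 5 and 6. In each of these comparisons 1 of the 7 brown adipocyte genes had a difference above 0. In PTC against *BRAF*(+) AT, 1 of the 7 brown and 0 of the 9 white adipocyte genes were lower, where 8.03% of all genes were lower. *Adipoq*, the adiponectin gene, averaged 9.62 in *BRAF*(-) AT and 8.61 in PTC. In bulk tissue fewer cells of a type and less RNA in each cell cannot be told apart.

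The mean centred signal of the 7 brown adipocyte genes ran from 0.03 to 1.43 in *BRAF*(-) AT, -0.18 to 0.80 in *BRAF*(+) AT, 0.28 to 1.76 in *BRAF*(-) BHL, -1.07 to 1.32 in *BRAF*(+) BHL, -1.30 to 0.95 in BL and -1.37 to 0.38 in PTC. Mouse M_958 had a brown adipocyte mean of 1.32, within the range of *BRAF*(-) BHL, while its subunit mean of 0.07 was below all 4 of them. *BRAF*(-) AT mouse M_956 had a brown adipocyte mean of 1.175 and a subunit mean of 0.0044, so this was seen with either *BRAF* status. The list includes *Ppargc1a*, which is also a general regulator of mitochondrial genes. The mean of the 9 white adipocyte genes ran from 0.52 to 1.02 in *BRAF*(-) AT, -0.41 to 0.52 in *BRAF*(+) AT, 0.19 to 1.12 in *BRAF*(-) BHL, -0.85 to 0.42 in *BRAF*(+) BHL, -1.12 to 0.25 in BL and -2.23 to 0.79 in PTC.

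Skeletal muscle markers were high in 8 mice (mean over 1), which were *BRAF*(-) AT mouse M_940, *BRAF*(-) BHL mouse M_764, BL mice M_527 and M_530 and PTC mice M_348, M_358, M_359 and M_1002. Of the 18 muscle genes 0 were lower and 0 higher in each of the 4 comparisons by limma. Without these 8 mice 5 subunit genes were lower for *BRAF* status, 55 in BHL, 5 in BL and 19 in PTC, with medians of -0.32, -0.65, -0.30 and -0.35. Fits with the muscle mean as a covariate are given further on. Among other cell types, macrophage markers were higher in PTC, 7 of 8, and in BL, 4 of 8, with 0 for *BRAF* status and in BHL. Markers of T and B cells (7), fibroblasts (7), endothelium (6) and parathyroid and C cells (3) gave 0 lower genes in the 4 comparisons apart from 1 endothelial gene in PTC, and 0 higher apart from 1 fibroblast gene in PTC. Of 10 thyroid follicular genes 2, 2, 1 and 5 were lower and 0 higher, among them *Slc5a5*, the iodide transporter, at -1.31 (SE 0.40) in PTC. The mean centred signal of these 10 genes was 0.28 in *BRAF*(-) AT, 0.14 in *BRAF*(+) AT and 0.18 in *BRAF*(-) BHL. It was -0.23 in *BRAF*(+) BHL, -0.01 in BL and -0.18 in PTC.

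**Figure D4:**
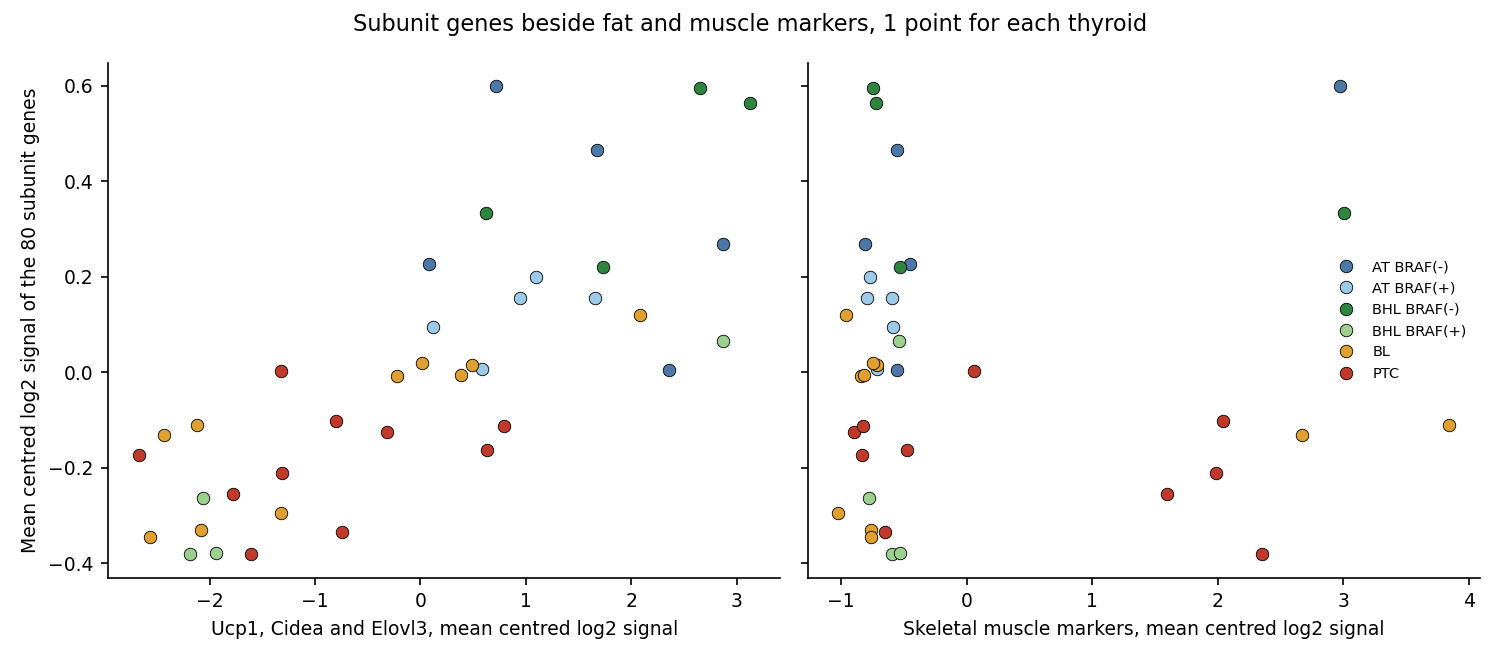
Mean centred log2 signal of the 80 subunit genes (y axis) against that of *Ucp1*, *Cidea* and *Elovl3* (left) and of 18 skeletal muscle genes (right), with 1 point for each of the 38 thyroids coloured by group. *Ucp1*, *Cidea* and *Elovl3* are part of the brown adipocyte list of 7 genes and were picked after the data had been seen. Most thyroids with low *Ucp1*, *Cidea* and *Elovl3* also have low subunit signals, with PTC M_364 (-1.33 and 0.0015) apart from them. *BRAF*(-) AT M_956 (2.36 and 0.0044) and *BRAF*(+) BHL M_958 (2.87 and 0.07) have high means of these markers beside subunit means near 0. The 8 thyroids with high muscle genes are spread over the whole range.

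The fits were therefore repeated with per-mouse marker means as covariates. With the white and brown adipocyte means added, the median difference of the 80 genes moved from -0.37 to -0.16 for *BRAF* status, from -0.62 to -0.46 in BHL, from -0.40 to -0.25 in BL and from -0.43 to -0.34 in PTC against *BRAF*(-) AT. The number of lower genes went from 18 to 0, from 58 to 11, from 41 to 7 and from 59 to 21. With the muscle mean alone it was 7, 56, 39 and 60. With all 3 means it was 0, 0, 3 and 12, with medians of -0.03, -0.42, -0.21 and -0.33. The adjusted fits estimate less precisely for *BRAF* status, where the median SE rose from 0.125 to 0.199, and the fat markers are themselves lower in *BRAF*(+) mice, so that their part in the result cannot be told apart from that of *BRAF* status in this design.

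The 12 genes lower in PTC with all 3 means were also among the 59. They were *Ndufa3*, *Ndufa10*, *Ndufa11*, *Ndufb7*, *Ndufb8*, *Ndufb9*, *Ndufb10*, *Ndufv2* and *Ndufv3* of complex I, *Uqcr10* of complex III, and *Atp5g1* and *Atp5o* of complex V. *Ndufb8* stood at -0.82 (SE 0.22, adjusted p 0.0174 by limma), *Atp5g1* at -0.71 (SE 0.16, adjusted p 0.00556) and *Ndufv3* at -0.56 (SE 0.12, adjusted p 0.00391). Against *BRAF*(+) AT 12 genes were lower with all 3 means, all among the 30, and *Cox7a1* was one of them at -0.96 (SE 0.24, adjusted p 0.0148). In BL the 3 genes were *Ndufb10*, *Ndufv3* and *Uqcr10*.

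**Figure D5:**
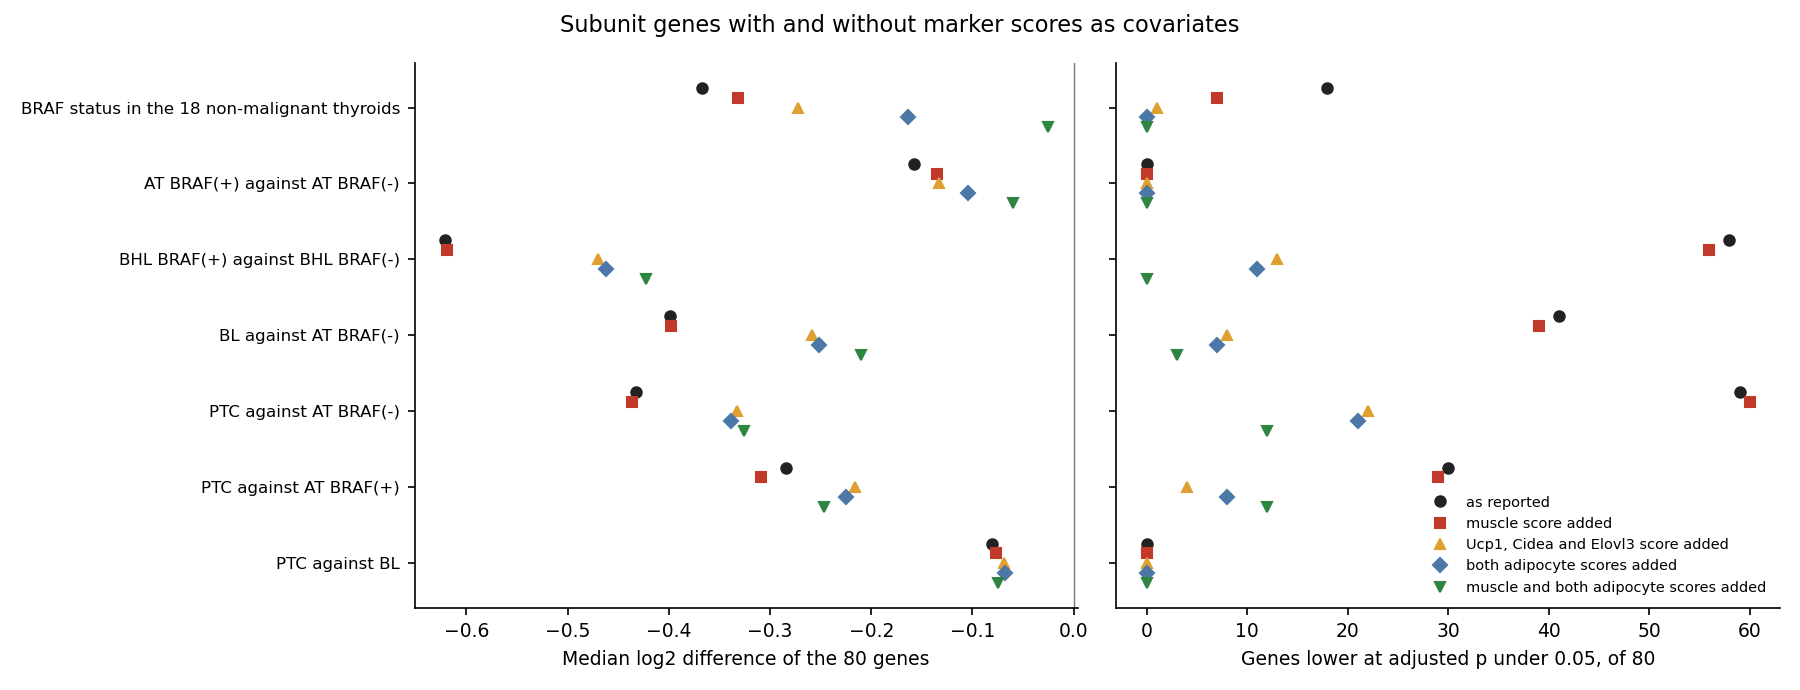
Median log2 difference of the 80 genes (left, x axis) and number of genes lower at an adjusted p under 0.05 (right, x axis) in 7 comparisons (y axis), as reported and with per-mouse marker means as covariates. Medians stay below 0 in all settings shown, closest to 0 for *BRAF* status with all 3 means (-0.03), and the counts in PTC against *BRAF*(-) AT go from 59 to 12.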

How the data were processed

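Thyroid RNA of 38 mice was profiled on GeneChip Mouse Gene 1.0 ST arrays. The values are log2 signals that the authors made with RMA (background correction, quantile normalization and summary per probe set) and deposited for 35556 probe sets. The version of RMA is not given in the sources used here. The labelling protocol names a kit for 3′ amplification, which is unusual for this array. Groups came from the sample titles, and mice are named as there.

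Probe sets were named through the platform annotation, in which 21789 had 1 gene symbol, 1621 several and 12146 none that could be used. All 80 subunit genes matched by Entrez number. limma 3.58.1 (R 4.3.3) was fitted over all probe sets with Benjamini-Hochberg adjustment. *BRAF* status used 18 thyroids with lesion type and sex, alone or with the interaction of *BRAF* status and lesion type. The other comparisons used 1 model of 6 groups and sex over all 38 thyroids. The authors' filter on flat probe sets (1.5-fold from the median in 20% of arrays) was an alternative only, because it keeps 10 of the 80 genes. The number of arrays limits the precision, and nothing gives a batch. The fit was tested on simulated data.

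The genes described by value were those with extreme differences in each complex or comparison, tissue isoform pairs and genes printed by the study. Others, such as *Ndufs1*, *Ndufv3*, *Ndufa11*, *Atp5h*, *Atp5o* and *Atp5g1*, were named after their values were seen. The members, pathway lists and marker lists were chosen with earlier results of these data known. Marker means of skeletal muscle, white and brown adipocytes, age, sex, array centring, variance models, probe set choice and single mice were varied. Promoter windows came from RefSeq (GRCm38.p6). Summaries and figures used Python 3.11.15, pandas 2.3.3, numpy 2.4.6 and matplotlib 3.10.9.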

Additional observations from a re-analysis of the deposited data

Results flagged for a closer look

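In 228 groups of values (33 genes and the means of 5 complexes in 6 groups) 21 had a mouse far from the rest of its group by Dixon's criterion, where chance gives about 1 in 20. In *BRAF*(+) BHL, M_958 was far above the other 3 mice for *Cox7a1* (9.84), *Cox5a* (9.65), *Cox6a1* (9.99), *Atp5mpl* (9.36) and *Ndufa1* (7.37). In the same group M_997 was low for *Cox7a2* (9.23) and M_943 low for *Uqcr11* (8.83). In *BRAF*(-) BHL, M_930 was high for *Cox7a2l* (8.58).

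In *BRAF*(-) AT, M_940 was high for *Cox6a2* (8.31), the isoform of heart and skeletal muscle, and for *Atp5j* (11.13), and low for *Sdha* (10.32). M_940 also had high skeletal muscle markers, whose part in these values was not tested. M_957 was low for *Ndufs5* (5.245). In *BRAF*(+) AT, M_948 was low for *Cox7a2* (9.47) and *Ndufb6* (9.52), M_779 low for *Atp5j* (10.56) and M_1003 high for *Cox4i1* (10.06).

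In PTC, M_1002 was low for *Cox6a1* (8.75) and *Uqcr10* (7.65), M_700 was high for *Sdha* (10.96) and M_686 low for *Uqcrb* (10.37). In BL, M_530 was high for *Ndufa4l2* (7.89), with the next mouse at 6.295.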

How the results depend on the processing

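No paired analysis was possible because mouse numbers are not shared between groups. The median difference of the 80 genes kept its sign in all comparisons and settings run, and 1 of 1980 alternatives of 74 gene results turned its direction, *Sdhb* for *BRAF* status with all 3 marker means (0.0052, adjusted p 0.998 by limma). Counts below are lower genes for *BRAF* status, BHL, BL, PTC against *BRAF*(-) AT and PTC against *BRAF*(+) AT, reported as 18, 58, 41, 59 and 30.

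With all 3 marker means the counts were 0, 0, 3, 12 and 12, with both adipocyte means 0, 11, 7, 21 and 8, and with the mean of *Ucp1*, *Cidea* and *Elovl3* 1, 13, 8, 22 and 4. The median for *BRAF* status was -0.16 with the adipocyte means and -0.03 (-0.026) with all 3, where that of the interaction was -0.30 and that of BHL -0.42. In females only the counts were 5, 49, 25, 37 and 17, and without the 8 mice of high muscle markers 5, 55, 5, 19 and 12. The last setting and the *Ucp1* mean were chosen after the data had been seen. The flat filter left 10 genes, of which 8, 9, 8, 10 and 4 were lower, with medians of -0.69, -1.22, -0.66, -0.77 and -0.51, and -1.04 for the interaction. For *BRAF* status 8 were lower without moderated variances, 7 with age and 7 with the muscle mean. Groups fitted alone gave 30 in BHL and 24 in BL. Causes were not tested.

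Leaving out 1 mouse gave 6 to 35 lower genes for *BRAF* status, 0 to 2 for the interaction, 44 to 60 in BHL, 14 to 47 in BL, 39 to 65 in PTC against *BRAF*(-) AT and 20 to 33 against *BRAF*(+) AT. Array centring, an intensity trend, no sex term and the mean of all probe sets kept every count within 1.5 times. The number of arrays limits what could be seen, above all in the AT and BHL groups of 4 or 5 mice.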
